A study of Mus musculus with 6 samples.

Results

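The genes described here carry the interferon signal from the cell surface to the nucleus. They are the receptor chains Ifnar1, Ifnar2, Ifngr1 and Ifngr2, the Janus kinase Jak1, the transcription factor Stat2, and the interferon regulatory factors Irf1, Irf7 and Irf9. They were taken by name from a count table of 21033 gene symbols, which holds all 9 of them, and all 9 passed the filter on low counts that left 10124 genes for testing. The rule names genes and uses no measured value, but the genes were picked with earlier results of these data known. RNA came from primary synovial fibroblasts, the connective tissue cells of the joint lining, isolated from ankle joints of hTNFtg mice, a strain that carries a human TNF transgene and develops arthritis. After 3 passages in culture the cells were kept for 48 h in 10 µM compound 33 or in DMSO, the vehicle, and each treatment gave 3 libraries. Both groups carry the transgene, no group without it or without vehicle is used here, and the labels give neither the age of the mice nor whether replicates are separate cultures. The p-values therefore rest on a spread between libraries that may be only technical.

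Type I interferons, among them IFN-α and IFN-β, bind a receptor made of IFNAR1 and IFNAR2, and IFN-γ binds one made of IFNGR1 and IFNGR2. The kinase JAK1 sits on a chain of each receptor and phosphorylates STAT proteins. STAT2 and IRF9 are subunits of ISGF3, which binds interferon-stimulated response elements, while STAT dimers bind gamma-activated sites and switch on IRF1. IRF7 is itself induced by interferon and drives further type I interferon production. In synovial fibroblasts TNF is known to start a low, autocrine interferon response through this same chain.

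Short sequences from the promoters of 4 of these genes are shown first, because they hold the letters that these factors recognise. The response element was searched as GAAA, any 2 bases, then GAAA, and the gamma-activated site as TTC, any 3 bases, then GAA, on both strands, from 250 bases before to 50 bases after each RefSeq start on GRCm38.p6, which is mm10. No match of one kind overlapped a match of the other in these windows. All 9 genes matched the promoter table. Capitals mark the matching letters, and each line is written 5′ to 3′ on the strand that holds the match.
Ifnar1 gamma-activated site, chr16:91485202-91485226, plus strand: cgggggcgTTCACGGAAggggcggg
Ifnar2 gamma-activated site, chr16:91372561-91372585, plus strand: ccaaggccTTCCTGGAAgaagagag
Irf1 gamma-activated site, chr11:53769916-53769940, plus strand: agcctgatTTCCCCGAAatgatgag
Stat2 response element, chr10:128270268-128270293, minus strand: agggaaagGAAACTGAAAccagggtg
Irf1 has 2 windows, and its letters lay in 1 of them, at -90 to -82 from that start. Those of Stat2 lay at -222 to -213. Those of Ifnar2 lay at -214 to -206, and those of Ifnar1 spanned the start, from -5 to 3. The response element letters were present in 3.44% of all 32851 promoter windows and the gamma-activated letters in 8.30%. Counted by gene, 3.99% and 9.55% of all genes with a window held them, beside 1 and 3 of the 9. The windows of Ifngr1, Ifngr2, Jak1, Irf7 and Irf9 held neither. A match describes letters only and shows no binding.

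The libraries held 1594052 to 2897207 reads. Levels are given as counts per 1000000 reads of the TMM-scaled library (CPM). The kit primes at the poly(A) tail, so a transcript yields reads near its 3′ end whatever its length, and CPM values of different genes were set side by side without dividing by length. All 12 markers of synovial fibroblasts, such as Col1a1 and Pdgfra, had reads. Their summed level was 15300 to 16400 CPM with DMSO and 12900 to 14800 CPM with compound 33, which did not overlap. Thy1 (574 to 871 CPM with DMSO, 427 to 525 with compound 33) and Lum (226 to 326, 142 to 218) were lower in every compound 33 library. Pdgfrb (123 to 206, 254 to 303) was higher in every one, and the other markers overlapped. All 7 lymphocyte markers and 5 of 6 dendritic cell markers had 0 reads. Markers of macrophages and other leukocytes, all 10 with reads, summed to 65.2 to 140 CPM and 53.5 to 100 CPM. Most of this was Lyz2 and Cd14, and Ptprc had 0 to 4 reads per library. Muscle and mural cell markers, all 5 with reads, summed to 5.41 to 10.4 CPM and 6.69 to 11.2 CPM. Endothelial markers, 5 of 6 with reads and Pecam1 at 0, summed to 2.44 to 3.71 CPM with DMSO and 5.15 to 9.54 CPM with compound 33, of which Tek made 0.451 to 2.12 and 2.06 to 7.05 CPM. Osteoclast markers, all 4 with reads and nearly all from Ctsk, summed to 138 to 279 CPM and 266 to 535 CPM. The part of the fibroblast, endothelial and osteoclast marker lists in the results below was not tested.

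Cells under DMSO expressed every link of the chain, at levels that spanned from 5.18 to 328 CPM on average. Jak1 was highest (328 ± 45.6 CPM, mean ± SD, n = 3), followed by Irf1 (178 ± 26.6 CPM). Irf9 (89.1 ± 14.5 CPM), Ifnar2 (75.9 ± 8.02 CPM), Ifngr1 (74.1 ± 14.0 CPM) and Ifngr2 (71.6 ± 4.38 CPM) came next, and libraries of neighbours among these 4 overlapped. Stat2 (19.6 ± 2.40 CPM), Ifnar1 (8.91 ± 0.902 CPM) and Irf7 (5.18 ± 0.947 CPM) closed the order. The other neighbours did not overlap in any library. With compound 33 the order was Jak1, Irf1, Ifngr1, Irf9, Ifnar2, Ifngr2, Stat2, Irf7 and Ifnar1, so that Irf7 then stood above Ifnar1, although their libraries overlapped.

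**Figure D1:**
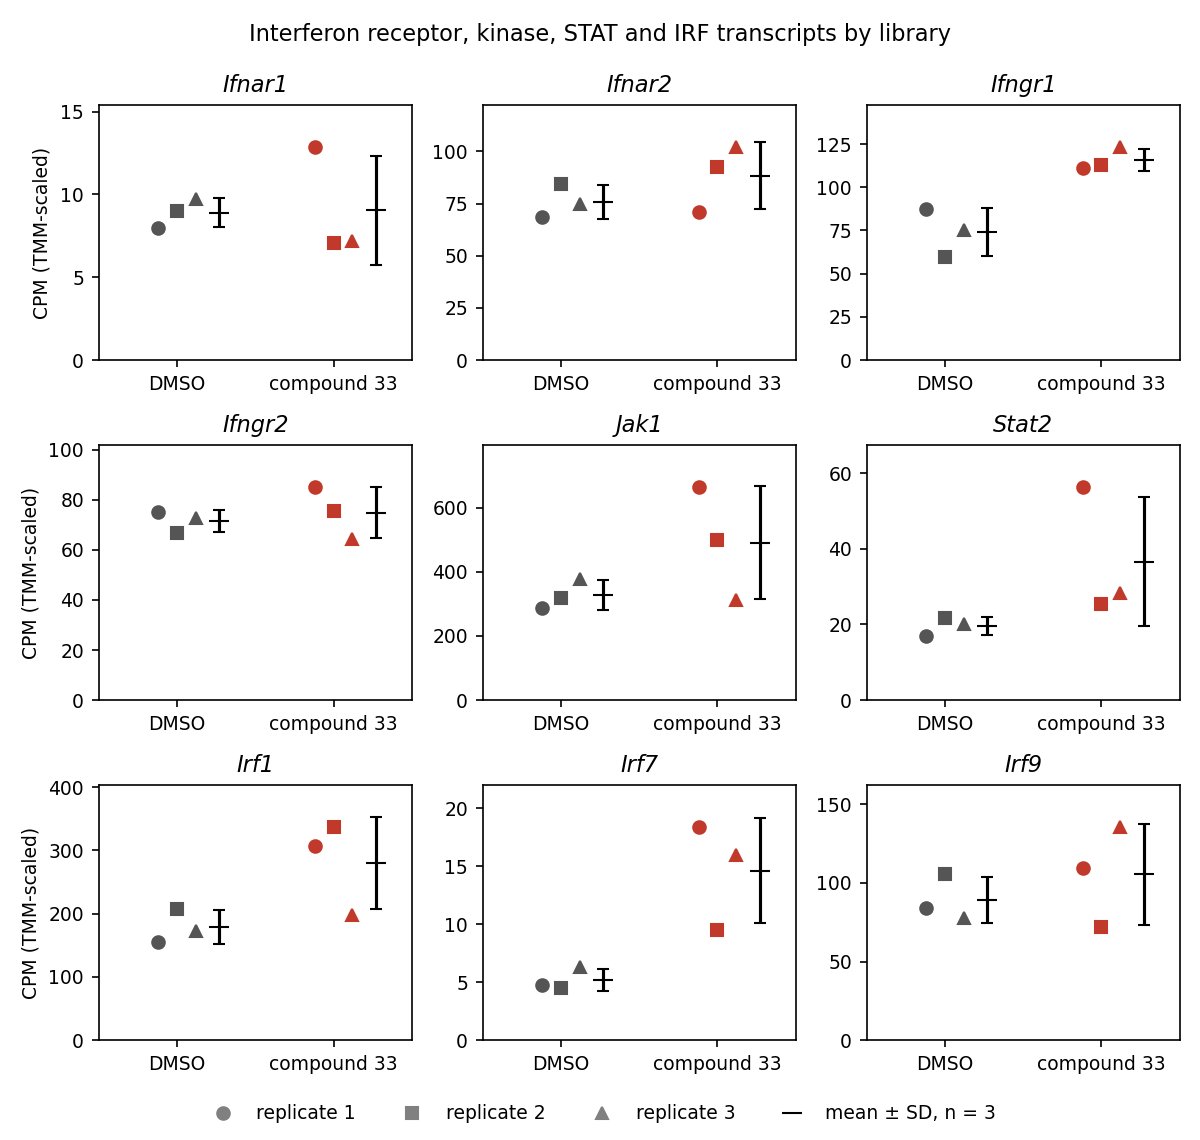
Level of each of the 9 transcripts in CPM (vertical axes, from 0) in the 3 DMSO and 3 compound 33 libraries, with the marker shape giving the replicate number and the bar the mean ± SD. All compound 33 libraries lie above all DMSO libraries for Ifngr1, Stat2 and Irf7, and compound 33 replicate 1 is the highest point for Ifnar1, Ifngr2, Jak1, Stat2 and Irf7.

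Setting treated against vehicle cells addresses which genes the compound deregulates in activated fibroblasts. Log2 fold changes were above 0 for 8 of the 9 genes. Their median was 0.58, where the median over all genes tested was -0.01 and 48.9% of those genes were positive. None of the 9 passed edgeR's quasi-likelihood test with Benjamini-Hochberg adjustment, where 0.0296% of all genes passed. DESeq2 and limma-voom also passed 0, where they passed 0.179% and 0.0198% of all genes. Under an unadjusted 0.05, edgeR counted 5 higher and 0 lower, namely Irf7, Ifngr1, Stat2, Irf1 and Jak1, which is 55.6% of the 9 where 3.64% of all genes tested lay under it in that direction and 3.23% in the other. DESeq2 counted 5 and limma-voom 4 under the same limit. The edgeR count was 2, Ifngr1 and Irf7, without compound 33 replicate 1. It was 3 without compound 33 replicate 2, where Jak1 and Irf1 were no longer under the limit. For these other counts the share of all genes under the limit is not given. In 3 genes (33.3%) every compound 33 library stood above every DMSO library, against 6.64% of all genes tested, and in 0 the order was the opposite, against 6.73%. Because the 9 genes were picked with earlier results of these data known, all these shares describe them and test nothing. In bulk RNA a lower share of cells of one type and less RNA per cell cannot be told apart, and the same holds for a higher share and more RNA.

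**Figure D2:**
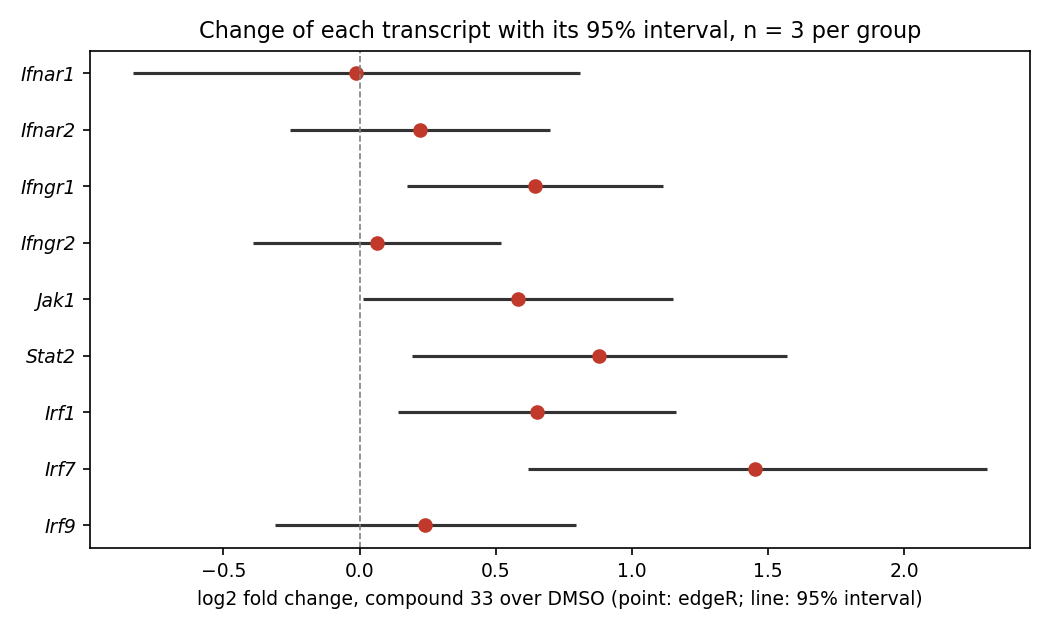
Log2 fold change of compound 33 over DMSO (horizontal axis) for each of the 9 genes, with points from edgeR and lines for the 95% interval. The intervals of Ifngr1, Jak1, Stat2, Irf1 and Irf7 lie above 0 before adjustment, and those of Ifnar1, Ifnar2, Ifngr2 and Irf9 span 0.

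The type I receptor showed no detectable difference. IFNAR1 is the chain that TYK2 attaches to, and its gene lies on chromosome 16 (91485238 to 91507441, plus strand, mm10; this and the following loci are whole gene bodies of protein-coding genes in GENCODE M21). It had 7.95, 9.02 and 9.75 CPM with DMSO and 12.8, 7.05 and 7.21 CPM with compound 33. Compound 33 replicate 1 was the highest of the 6 libraries and the other two compound 33 libraries were the lowest, so the groups overlapped. Its log2 fold change was -0.01 (95% interval -0.83 to 0.81, adjusted p = 0.998). With 14 to 28 reads per library, counting alone gives a coefficient of variation of 21.8% with DMSO, and changes within that interval were not detectable at this depth.

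Ifnar2, the chain that binds type I interferon tightly and recruits JAK1 and STAT2, lies nearby (91372783 to 91405589, plus strand). Its levels were 68.4, 84.4 and 74.9 CPM with DMSO and 70.9, 92.5 and 101.9 CPM with compound 33. The 2 highest libraries were compound 33 replicates 3 and 2, and replicate 1 fell inside the DMSO range. For this chain the log2 fold change was 0.22 (95% interval -0.25 to 0.70, adjusted p = 0.905).

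Ifngr1, the chain that binds IFN-γ, stood higher with compound 33 in every library. The gene lies on chromosome 10 (19591949 to 19610229, plus strand) and had 132 to 216 reads with DMSO and 182 to 272 with compound 33. Levels were 87.5, 59.5 and 75.2 CPM with DMSO and 111, 113 and 123 CPM with compound 33, where the lowest treated library exceeded the highest control. The log2 fold change was 0.64 (SE 0.22, 95% interval 0.18 to 1.11), which was under 0.05 before adjustment and not after it (adjusted p = 0.586). Its unadjusted p stayed under 0.05 in all 16 alternatives, between 0.00351 and 0.0437. The treated libraries varied by 5.53%, less than the 6.58% that counting alone gives. The DMSO libraries varied by 18.9%, more than the 7.65% that counting alone gives.

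Ifngr2, the signalling chain that carries JAK2, had overlapping groups. From chromosome 16 (91547072 to 91565623, plus strand) it gave 75.3, 66.8 and 72.8 CPM with DMSO and 85.0, 75.5 and 64.3 CPM with compound 33. Compound 33 held both the highest and the lowest library. Its log2 fold change was 0.06 (95% interval -0.39 to 0.52, adjusted p = 0.973). The ratio of Ifngr1 to Ifngr2 reads within a library, formed after the values were seen, was 1.16, 0.892 and 1.03 with DMSO and 1.31, 1.49 and 1.91 with compound 33. These ratios did not overlap between the groups. For the type I receptor, Ifnar1 to Ifnar2 gave 0.116, 0.107 and 0.130 with DMSO and 0.181, 0.0762 and 0.0707 with compound 33, which overlapped.

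Jak1, the kinase shared by both receptors, lies on chromosome 4 (101152367 to 101265282, minus strand) and was the most abundant of the 9. Its levels were 288, 318 and 377 CPM with DMSO and 663, 497 and 313 CPM with compound 33. Replicates 1 and 2 of compound 33 were above all controls, and replicate 3 lay inside the control range. The log2 fold change was 0.58 (SE 0.26, 95% interval 0.01 to 1.15, adjusted p = 0.720). Without compound 33 replicate 1 it was 0.31 (unadjusted p = 0.286), and without compound 33 replicate 3 it was 0.83 (unadjusted p = 0.00397). Depth was not the limit here, since libraries varied by 35.6% with compound 33 and counting alone gives 3.22%. Exons of Raver2 overlap the 3′ end of Jak1 on the opposite strand, and Raver2 had 1 to 7 reads per library.

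Stat2 encodes the STAT that acts mainly through ISGF3, and is the gene whose response element letters are printed above. It lies on chromosome 10 (128270559 to 128292849, plus strand). Levels were 17.0, 21.7 and 20.2 CPM with DMSO and 56.2, 25.3 and 28.3 CPM with compound 33. All treated libraries were above all controls, with replicate 1 far above replicates 2 and 3. The log2 fold change was 0.88 (SE 0.32, 95% interval 0.19 to 1.57, adjusted p = 0.649). It was 0.44 without compound 33 replicate 1 (unadjusted p = 0.159), the one alternative of 16 in which this gene was not under an unadjusted 0.05.

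**Figure D3:**
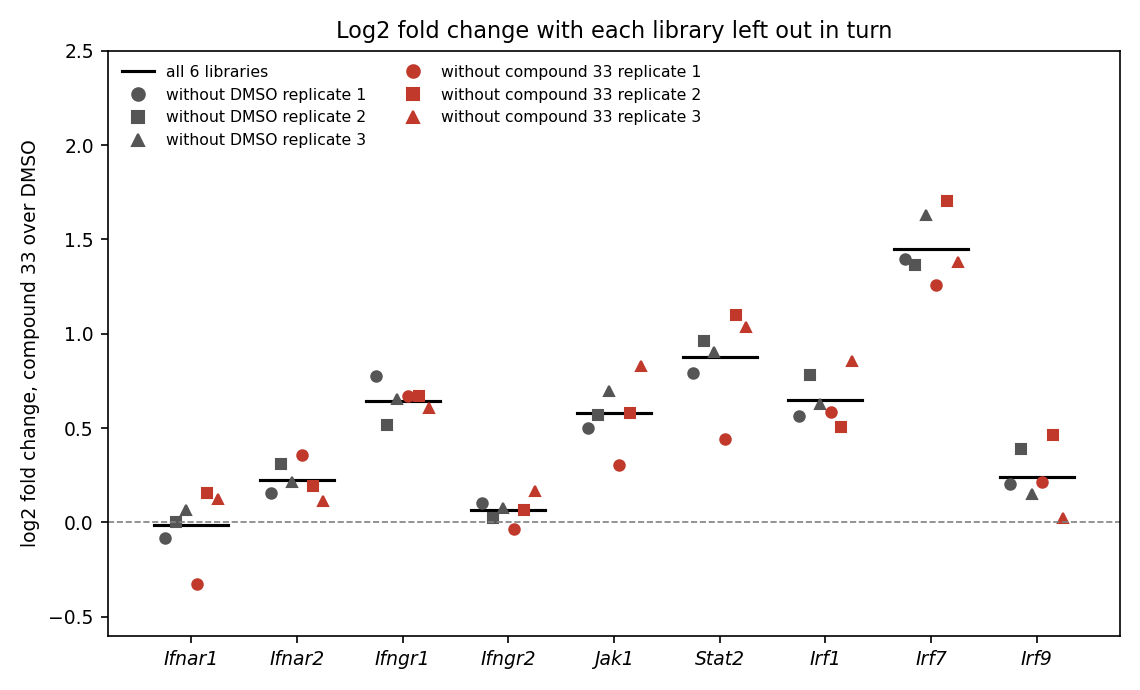
Log2 fold change of compound 33 over DMSO (vertical axis) with each library left out in turn (points) and with all 6 libraries (horizontal bars). Without compound 33 replicate 1 the values of Jak1 and Stat2 are 0.31 and 0.44, while Ifngr1 stays between 0.52 and 0.78 and Irf7 between 1.26 and 1.70.

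Irf1, an early interferon and TNF response factor that lies on chromosome 11 (53770014 to 53778374, plus strand), was the second most abundant. It had 155, 208 and 172 CPM with DMSO and 306, 336 and 198 CPM with compound 33. Compound 33 replicates 1 and 2 exceeded every control, and replicate 3 stood below DMSO replicate 2. The log2 fold change was 0.65 (SE 0.24, 95% interval 0.14 to 1.16, adjusted p = 0.649). It ranged from 0.50 without compound 33 replicate 2 (unadjusted p = 0.0899) to 0.85 without compound 33 replicate 3 (unadjusted p = 0.00206).

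Irf7 had the largest difference of the 9 genes and stood 57th by p among all genes tested. The gene is short, on chromosome 7 (141262706 to 141266481, minus strand). Reads numbered 9, 10 and 18 with DMSO and 30, 23 and 31 with compound 33, or 4.77, 4.51 and 6.27 CPM against 18.3, 9.54 and 16.0 CPM. Every treated library was above every control, and replicate 2 of compound 33 lay closest to them. The fitted change was 2.73-fold, a log2 fold change of 1.45 (SE 0.39, 95% interval 0.62 to 2.30, adjusted p = 0.401). The authors' deposited table gives 1.47 (SE 0.51, adjusted p = 0.400). Its unadjusted p was under 0.05 in all 15 alternatives that kept the gene, between 0.00102 and 0.0147. Between these few reads, counting alone gives a coefficient of variation of 28.5% with DMSO and 18.9% with compound 33. Exons of Phrf1 overlap the 3′ end of Irf7 on the other strand. Whether the counting used strand is not given, so reads of this pair may not be told apart. Phrf1 itself had 32, 75 and 109 reads with DMSO and 59, 94 and 54 with compound 33 (log2 fold change 0.20, adjusted p = 0.940).

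Irf9, the DNA-binding subunit of ISGF3, had overlapping groups too. From chromosome 14 (55603571 to 55610030, plus strand) it gave 83.8, 106 and 78.0 CPM with DMSO and 109, 71.7 and 135 CPM with compound 33. The treated group held the 2 highest libraries and also the lowest. A log2 fold change of 0.24 (95% interval -0.31 to 0.79, adjusted p = 0.915) was estimated, and it was only 0.03 without compound 33 replicate 3. The ratio of Stat2 to Irf9 reads was 0.203, 0.205 and 0.259 with DMSO and 0.514, 0.353 and 0.209 with compound 33, so the groups overlapped.

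The 9 genes did not vary as a block from library to library. Across the 6 libraries, Pearson's r of log2 CPM was 0.855 for Stat2 with Irf7, 0.848 for Jak1 with Irf1 and 0.843 for Ifngr1 with Irf7. It was -0.684 for Ifnar2 with Ifngr2 and -0.124 for Jak1 with Irf9. These values describe 6 libraries that share their depth and group. Compound 33 replicate 1 held the highest level of 5 of the 9, Ifnar1, Ifngr2, Jak1, Stat2 and Irf7, replicate 2 the highest Irf1, and replicate 3 the highest Ifngr1, Ifnar2 and Irf9. By the same measure the genes most like Irf7 were Sp100, a nuclear body protein (r = 0.988), Ogfr (r = 0.986) and 2310022B05Rik (r = 0.982). Those most like Stat2 were B4galt6, Ccdc32 and Mtf1, with r from 0.971 to 0.984, and those most like Irf9 were Xab2, Rpl10a and Cyb561d2, with r from 0.980 to 0.989. Among 10123 genes compared over 6 libraries, 109 had an r above 0.9 with Irf7, 54 with Stat2 and 52 with Irf9.

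Those interferon ligand genes that could be read were at or near 0 in every library. Of 21 interferon genes looked up, 11 are rows of the table, and 10 of those, including Ifnb1 and Ifng, had 0 reads. Over a whole group, 0 reads allows a level of up to 0.429 CPM with DMSO and 0.496 CPM with compound 33, counting 3 reads as the limit and covering counting error only. Ifnz had 5 reads over all libraries. Levels of the interferon genes without a row, Ifna1 and Ifna4 among them, are unknown.

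In the pathway lists described from here on, edgeR and limma-voom passed 0 genes after adjustment, and DESeq2 passed 2, the antiviral genes Ifit3 and Rsad2. Both are among the 27 type I interferon targets tested. Of all genes, edgeR passed 0.0296%, limma-voom 0.0198% and DESeq2 0.179%. The Janus kinase Tyk2 had 20.7, 17.6 and 25.1 CPM with DMSO and 33.0, 31.5 and 31.9 CPM with compound 33, groups that did not overlap (log2 fold change 0.60, SE 0.25, adjusted p = 0.697). Of the other receptor chains and kinases tested, Jak2 had a log2 fold change of -0.26 and Il10rb, a chain of the IFN-λ receptor, of -0.17. Ifnlr1 had 0 to 2 reads and Jak3 2 to 12 reads per library, below the filter. None of the 4 other STATs described here that were tested lay under an unadjusted 0.05, and their median was 0.10, with Stat3 at 0.21 and Stat6 at 0.29. Stat4 and Irf4 had 0 reads. Irf2 (0.29) and Irf3 (-0.06), the factor that starts IFN-β transcription, were the other IRFs tested, and Irf5 and Irf8, with at most 8 reads in any library, were below the filter.

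Regulators of the pathway had a median log2 fold change of -0.05 over 20 tested genes, with 1 higher and 1 lower under an unadjusted 0.05. Those shares, 5% each way, are near the 3.64% and 3.23% of all genes tested. The higher one was Nmi, an interferon-induced partner of STAT proteins, at 5.30, 9.47 and 16.7 CPM with DMSO and 31.8, 25.7 and 32.9 CPM with compound 33 (log2 fold change 1.47, SE 0.36, adjusted p = 0.392). All of its treated libraries exceeded all controls. The lower one, named after its values were seen, was Socs3, an inhibitor of JAK kinases, with 67.4 ± 18.0 CPM under DMSO and 40.5 ± 18.2 CPM under compound 33 (log2 fold change -0.73, adjusted p = 0.717). Its groups overlapped. The abundant regulators Rack1 (-0.06) and Irf2bpl (0.08) had small values.

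Sensors and adaptors that lead to interferon production had a median of 0.03 over 14 tested genes. Under an unadjusted 0.05, 3 (21.4%) were higher and 0 lower, against 3.64% and 3.23% of all genes tested. Higher were Ifih1, the RNA sensor MDA5 (log2 fold change 1.45, SE 0.43), and its regulator Dhx58 (1.39, SE 0.49). Also higher was the endosomal receptor Tlr3 (0.73, SE 0.26). Groups did not overlap for 4 of the 14, these 3 genes and Myd88 (log2 fold change 0.30), all higher with compound 33. Of all genes tested, 6.64% did so in that direction. Groups without overlap were also a condition for naming the 3 genes. Dhx58 had only 3, 5 and 7 reads in the DMSO libraries. Tmem173, or STING, had a value of -0.27.

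Interferon targets, which the chain controls, leaned upward. The lists were chosen with earlier results of these data known and so describe the direction rather than test it. Of 27 tested type I interferon targets, 22 (81.5%) were positive, with a median of 0.58. Under an unadjusted 0.05 edgeR counted 11 (40.7%) higher and 0 lower. Over all genes tested, 48.9% were positive, and 3.64% were higher and 3.23% lower under that limit. Named by a fixed rule were Rsad2 (log2 fold change 3.31, SE 0.60), Ifit3 (1.93, SE 0.39), Sp100 (1.43, SE 0.40) and Dtx3l (0.92, SE 0.28). Rsad2 had only 3, 1 and 4 reads in the DMSO libraries. Reads of Ifit3 are hard to tell from those of its near copy Ifit3b. The most abundant 2, Ifitm3 (-0.21) and Ifi27 (-0.24), were on the other side of 0. Of 19 tested IFN-γ targets, 18 (94.7%) were positive with a median of 0.68, and 8 (42.1%) were higher and 0 lower under an unadjusted 0.05. Among these were the immunoproteasome subunits Psmb9 (1.61, SE 0.37) and Psmb8 (0.90, SE 0.23) and the GTPases Gbp5 (1.25, SE 0.40) and Gbp7 (0.99, SE 0.34). The most abundant 2 were Tapbp (0.61) and B2m (0.02), neither under that limit.

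The targets were not equally high in the 3 treated libraries. The mean log2 CPM of the type I targets was 4.87, 4.71 and 4.73 under DMSO and 5.89, 4.93 and 5.43 in compound 33 replicates 1, 2 and 3. That of the IFN-γ targets was 5.13, 5.09 and 5.09 against 6.02, 5.41 and 5.71. Both were highest in replicate 1 and lowest in replicate 2 among treated libraries. Stat2, Irf7 and also Ifnar1, whose log2 fold change was -0.01, had that order, and the rest of the 9 genes did not. Without compound 33 replicate 1 the medians were 0.30 and 0.45. Promoter windows were at hand for 22 of the type I targets, of which 10 held the response element letters, and for 16 of the IFN-γ targets, of which 9 did, where 3.99% of all genes with a window do. The gamma-activated letters were in 5 and 6 of these, against 9.55% of all genes with a window.

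**Figure D4:**
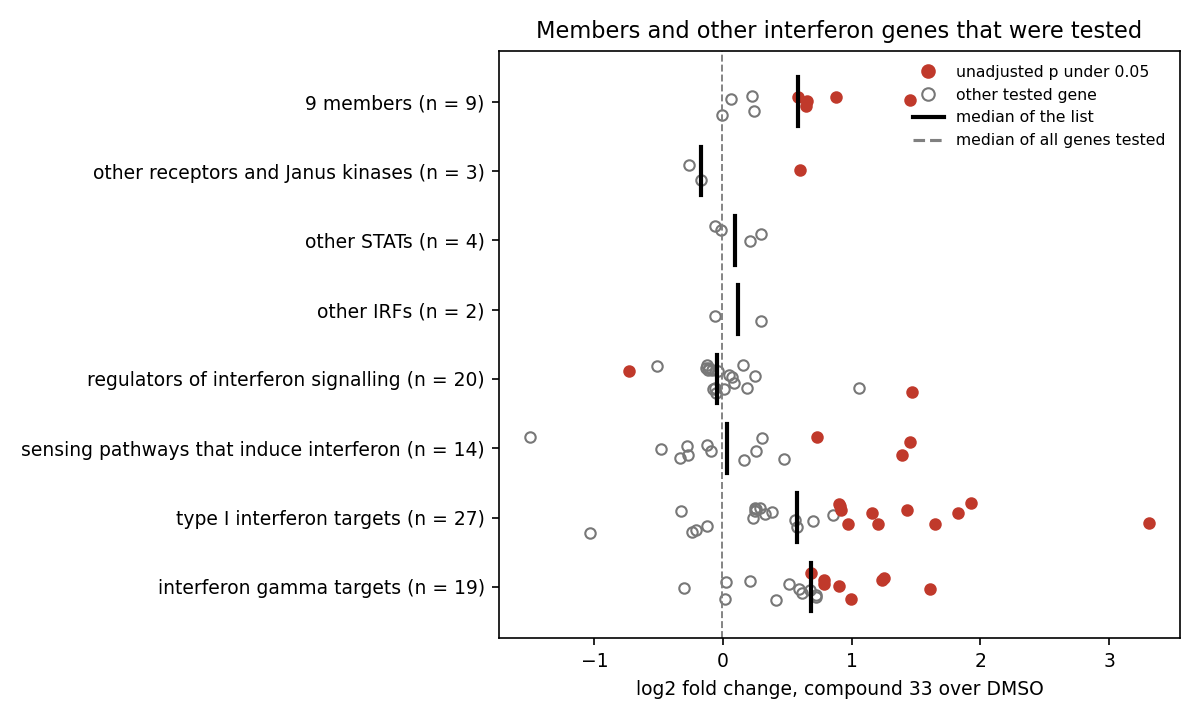
Log2 fold change of compound 33 over DMSO (horizontal axis) for each tested gene of the 9 and of the other interferon lists, with filled points under an unadjusted 0.05, bars at each list's median and a dashed line at the median of all genes tested. The 9 genes and both target lists have medians of 0.58 to 0.68. The medians of other receptors and kinases, STATs, IRFs, regulators and sensors lie between -0.17 and 0.12, the first 3 over only 3, 4 and 2 tested genes. The 9 genes and all lists were chosen with earlier results of these data known, so the gap between medians is description only.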

How the data were processed

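The authors deposited a table of raw read counts, in whole numbers, with gene symbols as rows and 6 libraries as columns. Per the labels, libraries were made with a QuantSeq 3′ kit for Ion Torrent. Alignment to mm10 and counting are recorded in the submitters' processing notes only as tool names, HISAT2 2.2.1 and featureCounts 2.0.3, beside DESeq2 and FastQC 0.11.9. The sources used here give no annotation, strand setting or handling of multi-mapped reads. The authors' own deposited comparison table gives a mean normalized signal, a log2 fold change with its error, a Wald score, and a p-value with its adjusted value.

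Counts were fitted in R 4.3.3 with edgeR 4.0.16 (filterByExpr with a minimum count of 10, TMM scaling, robust quasi-likelihood F test, two-sided, group as the only term, all 6 libraries), adjusted by Benjamini-Hochberg over 10124 genes at 0.05. The fit was tested on simulated data. Standard errors are the unshrunk log2 fold change over the square root of F. Alternatives were other scalings and filters, no robust estimation, DESeq2 1.42.0, limma-voom (limma 3.58.1), a replicate block and each library left out. The 9 genes and all lists were chosen with earlier results of these data known. From each list, up to 4 genes under an unadjusted 0.05 with groups that did not overlap were named, by smallest p, with the 2 most abundant, and up to 3 genes most like Irf7, Irf9 and Stat2 by r. Pairs of libraries within a group differed beyond counting noise (chi-square over its degrees of freedom, 4.56 to 18.9), so none was treated as a library deposited more than once; this does not show that they are separate cultures. Loci are from GENCODE M21 on mm10. Exons of Ifnar2 overlap Gm21970 and those of Irf9 overlap Rnf31 on the same strand, and those of Irf1 overlap Gm17334 on the opposite strand, none within the last 500 bases. No protein sequence was used here, and some genes of the lists are not reported here.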

Additional observations from a re-analysis of the deposited data

How the results depend on the processing

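None of the 9 genes passed after adjustment in edgeR or in any of the 16 alternatives, and Ifnar2, Ifngr1, Jak1, Stat2, Irf1, Irf7 and Irf9 kept a positive log2 fold change in every alternative that tested them (15 for Irf7, which the stricter filter drops, as it drops Ifnar1). Ifnar1, whose estimate was -0.01, was 0.00013 without DMSO replicate 2, 0.06 without DMSO replicate 3, 0.16 without compound 33 replicate 2 and 0.13 without compound 33 replicate 3, and -0.33 without compound 33 replicate 1. Ifngr2 was -0.034 without compound 33 replicate 1 and 0.17 without compound 33 replicate 3. The count of the 9 genes under an unadjusted 0.05, 5 in edgeR, was 2 to 5 with one library left out. It was lowest, at 2 (Ifngr1 and Irf7), without compound 33 replicate 1. The share of all genes under that limit is not given for any alternative. The count with groups that do not overlap, 3, was 3 to 6 with one library left out. It was 5 without compound 33 replicate 1 and 6 without compound 33 replicate 3. A group of fewer libraries has a narrower range, and the share of all genes is not given for these settings. The higher counts therefore cannot be read as a clearer difference. Genes passing over the whole table, 3 in edgeR, were 21 without a low-count filter, 18 in DESeq2, and 1 to 7 with one library left out (highest, 7, with DMSO replicate 1 left out, and 1 with either DMSO replicate 3 or compound 33 replicate 1 left out). Deviations from the group means correlated at -0.03, 0.21 and 0.08 for numbers 1, 2 and 3. DMSO replicates 2 and 3 correlated best with their own number, and DMSO replicate 1 with compound 33 replicate 3 (0.15). Of the compound 33 libraries, only replicate 2 correlated best with its own number. So few values cannot decide whether the replicate numbers pair the libraries. With the replicate block 7 genes passed over the whole table, 0 of the 9 passed and 4 lay under an unadjusted 0.05, Jak1 not among them (unadjusted p = 0.0693). Depth limits Ifnar1 and Irf7 most, with 9 to 31 reads per library between them.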

Other observations

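The DNA sensor gene Mb21d1, which encodes cGAS and lies upstream of STING and type I interferon, had 1208 reads in DMSO replicate 2 and 329 in compound 33 replicate 3, and 15 to 30 in the other 4 libraries. On the CPM scale this was 544.9 and 169 against 7.95 to 17.1, so the fitted log2 fold change of -1.50 has an interval from -7.23 to 4.23. The isopeptidase gene Usp18, which removes ISG15 and dampens signalling at IFNAR2, had 44.6 CPM in compound 33 replicate 1 and 8.57 to 11.7 CPM in the other 5 libraries. Both genes were singled out after their values were seen.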
